A study of Caenorhabditis elegans with 2 samples.

Results

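The regions described here are the candidate ChIP-seq regions that lie in the piRNA clusters of chromosome IV of Caenorhabditis elegans. They were chosen by position alone: a region of the ce11 list called on both replicates together was taken when its summit fell at 4.5 to 7 Mb (cluster 1) or at 13.5 to 17.2 Mb (cluster 2) of chromosome IV. There were 1048 such regions, 481 in cluster 1 and 567 in cluster 2, among 4151 on chromosome IV and 27953 in the whole list. That list was deposited as peaks and background together, the input to the authors' comparison of the replicates. A candidate region alone therefore shows no bound site. The same limits took 1149 of 30000 regions from the list of replicate 1 and 901 of 22464 from that of replicate 2. At the limits of cluster 1, the first and last members had signals of 25.7 and 32.7 on the authors' scale, and the nearest regions outside had 31.7 and 34.1. At the limits of cluster 2 the first and last members had 45.7 and 31.4, and the nearest outside 29.1 and 22.2.

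The series maps MEC-3, a LIM homeodomain transcription factor known for specifying touch receptor neurons, by chromatin immunoprecipitation and sequencing. It holds 1 group of 2 biological replicates. Both samples are whole late embryos of strain OP55, genotype unc-119(ed3) III with the transgene wgIs55, labelled hermaphrodite, which stably expresses MEC-3 with a GFP-FLAG tag at its C terminus. The embryos were taken 4 h after synchronization by egg bleaching, and sonicated chromatin was precipitated with an antibody against GFP. The transgene stands in for the native protein, and a whole embryo mixes many cell types, so more cells with a bound site and more binding per cell cannot be told apart. No control sample was used here, the number of reads is unknown, and each comparison below is between places on the chromosome, repeated in the list of each replicate.

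The piRNAs of C. elegans are the 21U-RNAs, small RNAs of the germline that begin with uridine and are bound by the Argonaute protein PRG-1 to silence transposons and other foreign sequence. Most are transcribed one by one from many short loci, each with its own upstream sequence around a core, CTGTTTCA, where a complex of PRDE-1, SNPC-4, TOFU-4 and TOFU-5 acts. These loci are crowded into broad clusters on chromosome IV, in introns and between genes, alongside ordinary protein-coding genes. In the annotation used here the chosen limits hold 14204 of the 14714 21U-RNA genes of chromosome IV (96.5%) and 92.5% of the 15363 in the genome. The density was 1126 per Mb in cluster 1 and 3078 per Mb in cluster 2, against 45.2 per Mb on the rest of the chromosome. Among the 14204 genes, 96.2% began with T in the genome. An exact match to the core lay within 20 to 70 bases upstream of 34.8%, starting at a median of 46 bases. Only exact matches were counted, so a locus with a variant of the core counts as without it. The annotated loci often overlap: 6096 start within 10 bases of another on the same strand.

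The sequences below show the kinds of place that the results turn on, all on WBcel235, the assembly of ce11. The first pair are 151 bases at the strongest region of each cluster, on the plus strand at chrIV:17087560-17087710 and chrIV:6206489-6206639, with capitals for the 21 bases centred on the summit.
Strongest region of cluster 2, upstream of snx-13: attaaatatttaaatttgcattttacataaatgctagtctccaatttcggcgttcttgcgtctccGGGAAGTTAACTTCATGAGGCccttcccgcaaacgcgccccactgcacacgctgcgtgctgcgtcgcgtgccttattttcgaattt
Strongest region of cluster 1, upstream of C49A9.10: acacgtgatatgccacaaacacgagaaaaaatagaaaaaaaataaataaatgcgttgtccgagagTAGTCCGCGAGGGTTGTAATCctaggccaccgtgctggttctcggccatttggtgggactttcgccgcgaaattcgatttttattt

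The next 4 are 21U-RNA loci, each with the bases upstream. Capitals mark the core where there is an exact match and the 21 bases of the RNA. The first lies on the minus strand at chrIV:6207082-6207172, 538 bp from the strongest summit of cluster 1 and outside that region. The second, on the minus strand at chrIV:17074978-17075068, is the nearest locus with a core to the strongest summit of cluster 2, 12637 bp away. The third, on the plus strand at chrIV:15410427-15410517, lies in 1 of the regions that hold the most 21U-RNA genes. The fourth, on the plus strand at chrIV:5967019-5967109, has no exact match to the core. It is the single 21U-RNA locus of the clusters inside a final peak.
21ur-15446: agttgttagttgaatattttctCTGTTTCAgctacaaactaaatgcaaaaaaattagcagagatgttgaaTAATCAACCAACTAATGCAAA
21ur-5151: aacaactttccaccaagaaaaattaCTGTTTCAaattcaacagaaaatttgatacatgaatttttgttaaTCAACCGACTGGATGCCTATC
21ur-3819: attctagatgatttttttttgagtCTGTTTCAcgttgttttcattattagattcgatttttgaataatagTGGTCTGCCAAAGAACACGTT
21ur-5229: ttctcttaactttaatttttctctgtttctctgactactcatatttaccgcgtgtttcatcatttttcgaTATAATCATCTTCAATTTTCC

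The last 2 are the tRNA genes at final peaks of the clusters, in capitals between 30 bases of flank on either side. They lie on the plus strand at chrIV:5967130-5967262 and on the minus strand at chrIV:14611277-14611409.
WBGene00022903: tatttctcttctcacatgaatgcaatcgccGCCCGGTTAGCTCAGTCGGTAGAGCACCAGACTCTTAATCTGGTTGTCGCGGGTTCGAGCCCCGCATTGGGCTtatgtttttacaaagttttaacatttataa
WBGene00014324: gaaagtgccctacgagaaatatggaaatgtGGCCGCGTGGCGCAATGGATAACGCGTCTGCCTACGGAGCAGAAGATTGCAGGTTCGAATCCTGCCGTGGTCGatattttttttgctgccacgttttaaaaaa

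Candidate regions were sparser in the piRNA clusters than on the rest of chromosome IV, in the joint list and in each replicate. The clusters make up 35.4% of the chromosome and held 25.2% of its candidate regions (1048 of 4151, exact Clopper-Pearson 95% interval 23.9 to 26.6). The replicate 1 list had 25.2% there and the replicate 2 list 26.3%. Intervals of this kind cover counting error only, and neighbouring regions are not independent. The density was 169 regions per Mb in the clusters, against 275 on the rest of the chromosome. In replicate 1 it was 185 in the clusters and 301 elsewhere, and in replicate 2 it was 145 in the clusters and 224 elsewhere. Cluster 2, the richer in 21U-RNA genes, was the sparser, at 153 per Mb, against 192 in cluster 1, and this order held in both replicates. The stretch between the clusters had 214 per Mb, close to cluster 1, while the left and right ends of the chromosome had 360 and 320.

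**Figure D1:**
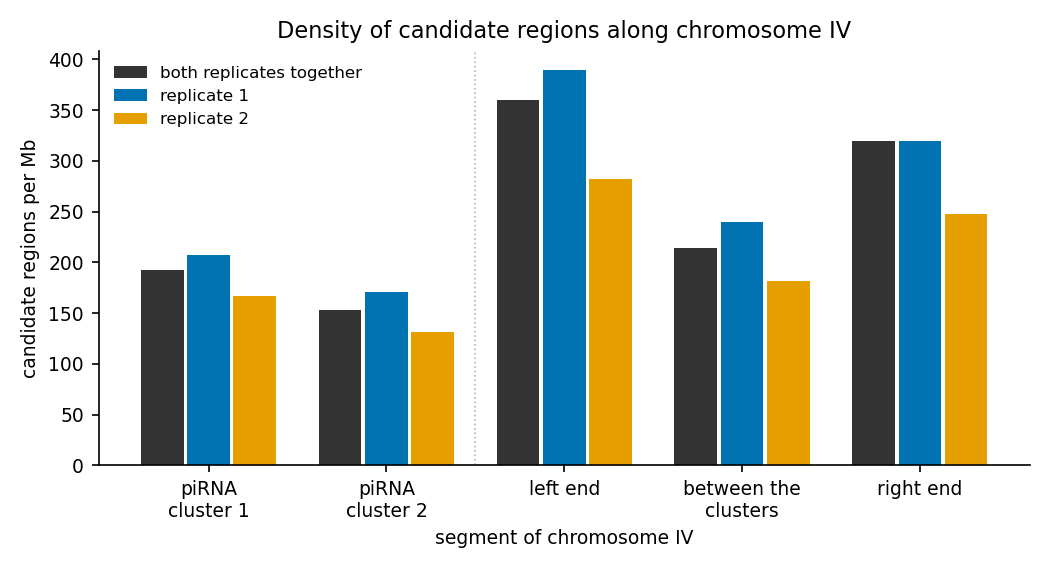
Candidate regions per Mb in 5 segments of chromosome IV, with the piRNA clusters left of the dotted line and a bar for each list. Cluster 2 had the lowest density in all 3 lists, 153 per Mb in the joint list, 171 in replicate 1 and 131 in replicate 2.

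Chromosome arms and centres differ in many features of chromatin, so the same fractions of length were read on chromosomes I, II, III and V. The fraction that holds cluster 2 had 64.6% of the mean density of chromosome IV in the joint list, 65.6% in replicate 1 and 66.8% in replicate 2. The matching fraction of the other 4 chromosomes lay between 98.0% and 124% of their own mean density over the 3 lists. For the fraction of cluster 1 the values on chromosome IV were 81.1%, 79.5% and 85.1%, against 84.7% to 101% on the other 4. In each list both fractions were lower on chromosome IV than on any of the other 4, that of cluster 1 by a few points only.

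Base composition moved with these densities. Candidate summits had a median GC content of 42.3% within 100 bp in the clusters, whereas all positions of the clusters had a median of 31.8%. When every chromosome IV base was given the summit rate of its own GC class, in steps of 5 percentage points, 30.2% of the regions fell in the clusters, against 25.2% observed and 35.4% by length. In replicate 1 that share was 30.1%, against 25.2% observed, and in replicate 2 it was 30.9%, against 26.3% observed. Candidate regions covered 7.11% of cluster bases and 11.5% of the other bases of chromosome IV. Weighted to the GC content of the clusters, the other bases came to 9.52%. In each of 10 GC classes from 15 to 65%, cluster bases were covered less often than the other bases, in all 3 lists. Part of the gap in density thus moved with GC content and part did not. This weighting by GC was added after the data were seen.

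Windows with more 21U-RNA genes tended to hold fewer candidate regions in cluster 2, and less clearly so in cluster 1. Over the 37 windows of 100 kb in cluster 2, Spearman's rho between both counts was -0.595 in the joint list, -0.613 in replicate 1 and -0.483 in replicate 2. Over the 25 windows of cluster 1 it was -0.277, -0.231 and -0.172. The 12 windows of cluster 2 with the most 21U-RNA genes, 380 to 486 each, had 107 candidate regions per Mb, the middle 13 had 137, and the 12 with the fewest had 217. In cluster 1 the order was not steady, with 180 per Mb in the 8 richest windows, 147 in the middle 9 and 256 in the 8 poorest. These 8 include windows 1, 2 and 3 at the left limit, with 0, 1 and 8 21U-RNA genes and 42, 46 and 29 regions. The others of the 8 held 13 to 24 regions each, and the trend without the windows at the limit was not computed. All windows share their libraries and their base composition. For the joint list, rho between regions and GC content was 0.679 in cluster 1 and 0.633 in cluster 2.

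The signal of the regions differed little between the clusters and the rest of the chromosome. The deposited signal, whose scale is not given, had a median of 30.1 in the clusters (quartiles 25.4 and 38.6, highest 167), against 30.4 on the rest of chromosome IV (highest 359). In replicate 1 the median was 16.6 in the clusters and 16.9 elsewhere, and in replicate 2 it was 18.5 in both. Above the median of all chromosome IV candidates lay 49.2% of the cluster regions (46.2 to 52.3) and 50.2% of the others. By cluster this share was 48.4% in cluster 1 and 49.9% in cluster 2, and 48.2% and 47.9% in replicate 1. In replicate 2 the clusters lay on either side, at 44.8% (40.0 to 49.8) in cluster 1 and 53.7% (49.2 to 58.2) in cluster 2. Every list stops at a lowest signal of its own, 21.8 in the joint list, so these medians describe only what was listed.

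**Figure D2:**
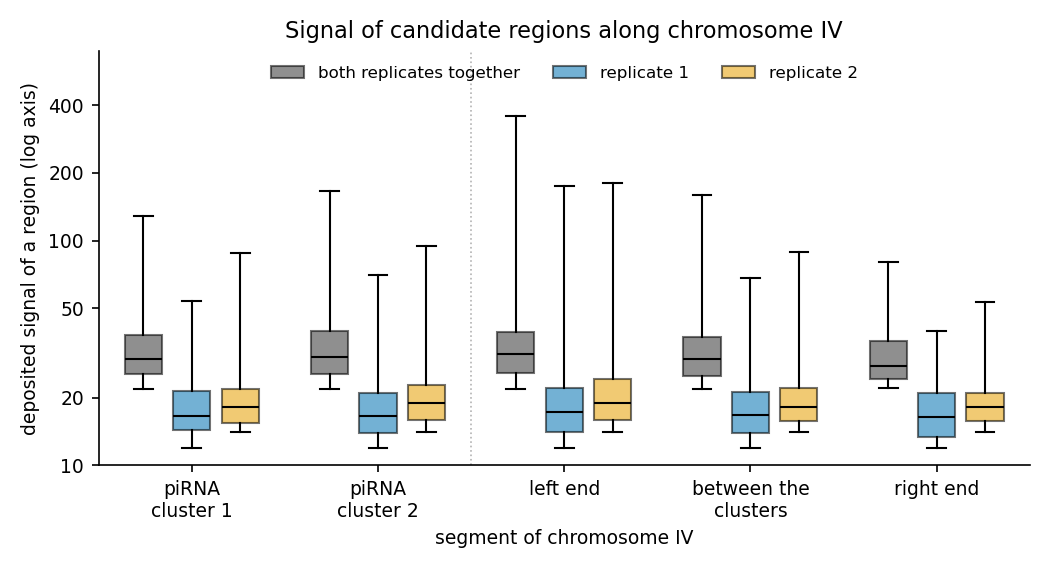
Deposited signal of the candidate regions in 5 segments of chromosome IV on a log axis, with piRNA clusters left of the dotted line. Boxes span the quartiles, with the median as a line, and whiskers reach the lowest and highest region. The medians of the joint list were 29.7 in cluster 1 and 30.3 in cluster 2, against 31.3 at the left end, and signals are comparable only within a list.

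Few cluster regions belonged to the final peaks, the list left after the authors' comparison of the replicates. A final peak was overlapped by 15 of the 1048 cluster regions (1.43%, 0.803 to 2.35), against 80 of 3103 on the rest of chromosome IV (2.58%, 2.05 to 3.20), while 2.26% of all 27953 candidates overlapped one. No test of this difference was made, and final peaks were chosen by the same signal. In replicate 1 the share was 1.31% in the clusters and 2.17% elsewhere, and in replicate 2 it was 1.44% in the clusters and 2.89% elsewhere. Of the 64 final peaks of chromosome IV, 11 lay in the clusters (17.2%, 8.90 to 28.7, against 35.4% of the length), 6 in cluster 1 and 5 in cluster 2. The remaining 4 of the 15 were weaker neighbours that overlap a final peak in part. The lowest signal of a final peak was 77.4, and the strongest cluster region outside the final list had 76.7.

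Of the 11 final peaks in the clusters, 7 lay in a promoter window and 10 held no 21U-RNA 5′ end. Over all 1048 cluster regions, 33.5% lay in a promoter window and 849 held no 21U-RNA 5′ end. The strongest, at chrIV:17087413-17087856, had signal 167 and rank 28 in the joint list, with 70.1 (rank 40) in replicate 1 and 94.7 (rank 32) in replicate 2. Its summit lay 197 bp upstream of snx-13, a sorting nexin gene, in a promoter window shared with snr-1, which encodes a core protein of the spliceosomal snRNPs. The nearest 21U-RNA gene started 9514 bp away. The strongest region of cluster 1, at chrIV:6206342-6206785, had signal 129, with 49.6 in replicate 1 and 78.5 in replicate 2, and lay 220 bp upstream of C49A9.10. Both of these regions were high in each replicate.

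The region at chrIV:4660364-4660807, of signal 122, lay between F29B9.11 and jmjd-1.2, which encodes a JmjC histone demethylase. It had 53.9 in replicate 1 and 87.8 in replicate 2, and its nearest 21U-RNA gene was 30282 bp away. A region of signal 115 lay in an intron of Y65A5A.2, 450 bp downstream of a 5′ end, with 64.5 in replicate 1 and 59.3 in replicate 2. Of the other final peaks at promoters, the one 62 bp upstream of Y73B6BL.29 had signal 110, with 33.3 (rank 1402) in replicate 1 and 76.8 (rank 74) in replicate 2. The peak 205 bp upstream of rom-4, a rhomboid family gene, had signal 106, with 34.8 (rank 1115) in replicate 1 and 70.5 (rank 95) in replicate 2. The peak 189 bp upstream of C01B10.9, in a window shared with the carboxylesterase gene cest-5.1, had signal 95.6, with 36.6 (rank 884) in replicate 1 and 56.4 (rank 183) in replicate 2. These 3 ranked higher in replicate 2, a list of 22464 regions, than in replicate 1, a list of 30000.

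The 4 remaining final peaks were not at promoters. The peak at chrIV:5966948-5967391 had its summit inside the tRNA gene WBGene00022903, with signal 93.4 in the joint list, 42.1 in replicate 1 and 49.8 in replicate 2. It also holds 21ur-5229, whose 5′ end is 81 bp from the summit, and 37.1% of the 24-mers around the summit occur more than once in the genome. The peak at chrIV:14611054-14611497, of signal 86.8, holds the whole tRNA gene WBGene00014324, and its summit lay 31 bp from that gene. It had 43.7 in replicate 1 and 35.9 in replicate 2. The other pair lay in coding sequence, at rpn-1, which encodes a subunit of the proteasome's regulatory particle (signal 82.5), and at col-133, a collagen gene (signal 82.0). The rpn-1 peak had 25.3 (rank 4386) in replicate 1 and 44.8 (rank 384) in replicate 2, and the col-133 peak had 40.6 (rank 503) in replicate 1 and 39.7 (rank 607) in replicate 2. Their summit windows had a GC content of 56.7% and 62.7%, well above the cluster median.

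Below the final peaks, the next regions of cluster 2 were at the tRNA gene WBGene00014560 (signal 76.7), in an intron of coq-3, a gene of ubiquinone synthesis (76.0), in an ncRNA gene, 5116 bp upstream of jac-1, which encodes a catenin (75.4), upstream of Y7A9D.1 and near the tRNA gene WBGene00014561 (73.1), and 4129 bp from the 5′ end of Y57G11C.38 (72.3). In cluster 1 they were upstream of usp-4 (73.3), at ogdh-1, a gene of the citric acid cycle (73.3), in the pseudogene WBGene00044503, 34851 bp from the nearest coding 5′ end, that of Y73B6A.3 (63.6), and at the 5′ end of F19C7.8 (63.5). All 24-mers around the ogdh-1 summit occur more than once in the genome (100%). None of these 9 regions holds the 5′ end of a 21U-RNA gene, as is the case for 849 of all 1048 cluster regions.

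The regions held 21U-RNA loci less often than windows of the clusters at large. The 5′ end of a 21U-RNA gene lay inside 199 of 1048 regions (19.0%, 16.7 to 21.5), while 47.6% of all windows of the same width, 444 bp, in the clusters hold one. The shares were 14.8%, against 31.2% of windows, in cluster 1 and 22.6%, against 58.7%, in cluster 2. The same measure gave 21.1% in replicate 1 and 24.8% in replicate 2. The mean number of 21U-RNA 5′ ends per region was 0.303, against 1.02 per window. Weighted to the GC content of the summits, the windows came to 24.1%, so most of the gap moved with GC content. At the same GC content the windows came to 25.6%, against 21.1% of regions, in replicate 1, and to 28.2%, against 24.8%, in replicate 2.

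Around the summits the density of 21U-RNA genes had a dip. Within 100 bp of a summit it was 0.457 genes per kb in cluster 1 and 0.723 in cluster 2, against cluster means of 1.13 and 3.08. It reached 0.707 per kb in cluster 1 and 1.77 in cluster 2 at 400 to 500 bp, and stayed below both means as far as 2000 bp. The median distance from a summit to the nearest 21U-RNA 5′ end was 1169 bp, against 249 bp for every 50th position of the clusters. Neither the profile nor this distance was weighted by GC content. Its median was 42.3% at cluster summits and 27.4% at 21U-RNA loci.

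**Figure D3:**
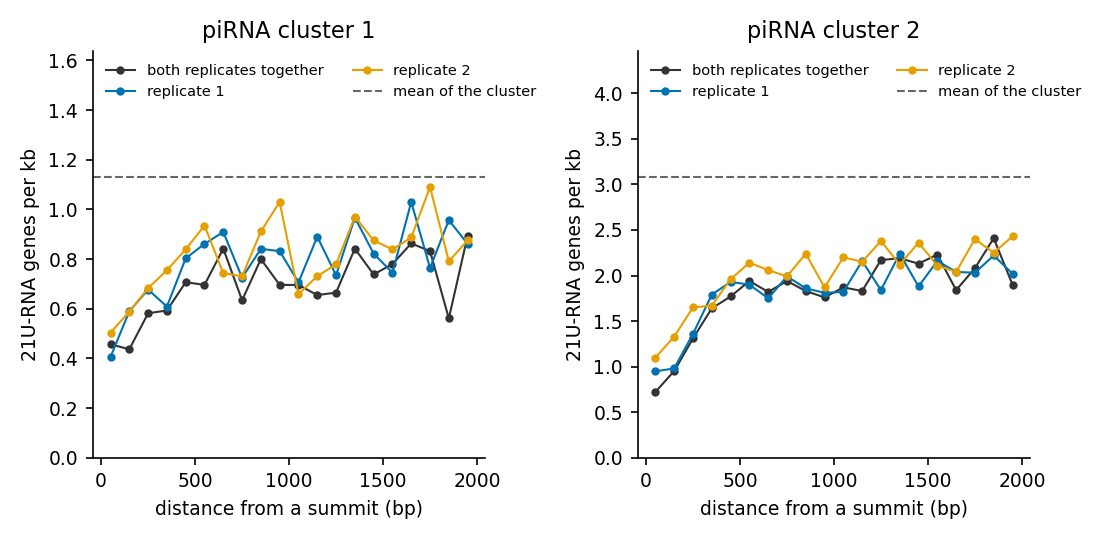
Number of 21U-RNA 5′ ends per kb (vertical axis) by distance from a candidate summit in bp (horizontal axis), in steps of 100 bp, for each list, with the mean of the cluster as a dashed line. Within 100 bp of the summits of the joint list the density was 0.457 per kb in cluster 1 and 0.723 in cluster 2, below the means of 1.13 and 3.08. The means were not weighted by GC content.

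Counted from the loci, 309 of 14204 21U-RNA genes (2.18%, 1.94 to 2.43) had their 5′ end inside a candidate region, against 7.11% of cluster bases. The interval treats each gene as independent, although loci often overlap. In replicate 1 the share was 2.74% of genes and 7.82% of bases, and in replicate 2 it was 2.63% of genes and 6.12% of bases. 21U-RNA loci are poor in GC, with a median of 27.4%, and cluster bases of the same GC content were covered to 2.82% in the joint list, 3.22% in replicate 1 and 2.97% in replicate 2. In cluster 2 the genes stayed below bases of the same GC content in all 3 lists, at 1.91%, against 2.53%, in the joint list, 2.36%, against 2.92%, in replicate 1 and 2.36%, against 2.69%, in replicate 2. In cluster 1 they did not: the share was 3.27%, against 3.47%, in the joint list, 4.26%, against 3.94%, in replicate 1 and 3.69%, against 3.56%, in replicate 2. Cluster bases of the same GC content and the same kind of place (coding sequence, untranslated exon, intron or outside genes) gave much the same comparison. They were covered to 2.79% in the joint list.

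**Figure D4:**
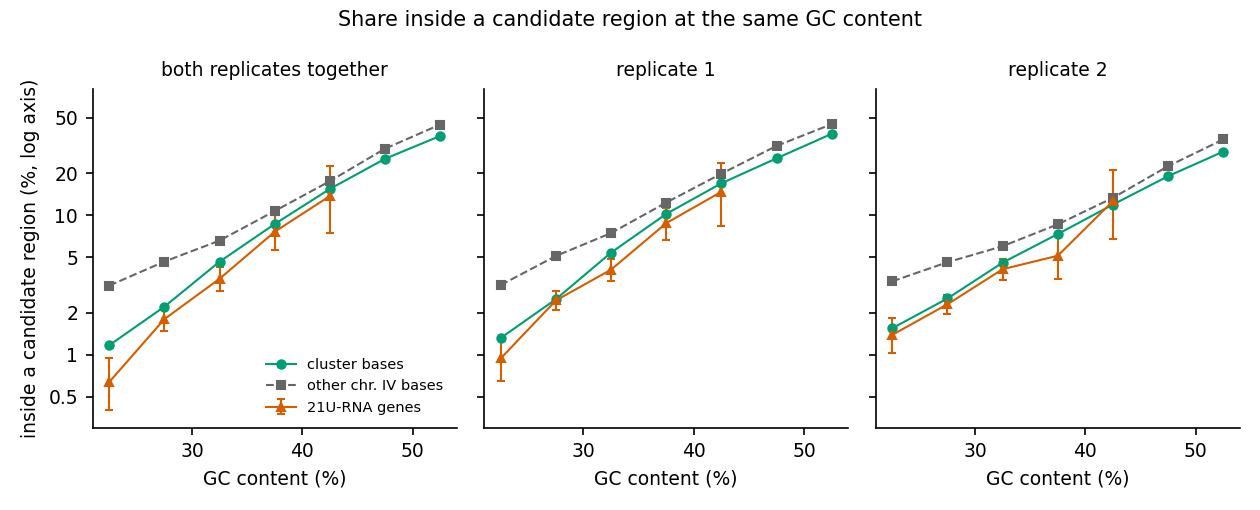
Share inside a candidate region (log axis, in percent) of 21U-RNA 5′ ends of the clusters, of cluster bases and of the other bases of chromosome IV, by GC content within 100 bp. Bars on the 21U-RNA points are exact 95% intervals, and classes with under 20 genes have no 21U-RNA point. In the joint list the lowest class drawn, 20 to 25% GC, had 0.638% of 21U-RNA genes and 1.17% of cluster bases inside a region, against 3.13% of the other bases.

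Within the clusters, loci with an exact match to the upstream core were inside a region slightly more often than those without one. The share was 2.55% (126 of 4944, 2.13 to 3.03) with the core and 1.98% (183 of 9260, 1.70 to 2.28) without it. These intervals treat each annotated gene as independent, although overlapping loci can share a core and a region. Replicate 1 had 3.36% with and 2.41% without, and replicate 2 had 2.93% with and 2.46% without. The order was the same in each list, by less than 1 percentage point, while cluster bases of the same GC content came to 2.80% with the core and 2.82% without in the joint list. On the rest of chromosome IV the order was the other way in each list, at 3.73% with the core (6 of 161) and 8.60% without (30 of 349) in the joint list.

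Regions that held a 21U-RNA 5′ end had a slightly lower median signal than those without one, with overlapping quartiles. The median was 28.0 in cluster 1 and 27.9 in cluster 2, against 30.3 and 31.2 for regions without one, and both replicates had the same order. Regions with a 21U-RNA 5′ end were also poorer in GC. Their median was 34.8%, against 41.8%, in cluster 1 and 36.8%, against 45.3%, in cluster 2. Signals at the same GC content were not compared. Among the 1048 regions, 849 held no 21U-RNA 5′ end, 114 held 1, 59 held 2, 20 held 3, 4 held 4 and 2 held 5. The 2 regions with 5 both lay in cluster 2. The region at chrIV:15410408-15410851, which holds 21ur-3819, had signal 36.9 in the joint list and 24.6 in replicate 2, and overlapped no replicate 1 region. That at chrIV:16975341-16975784 had signal 34.0 in the joint list and 26.9 in replicate 1, and overlapped no replicate 2 region. Of the 4 regions with 4 loci, the 3 named by the rule had joint signals of 33.4, 32.5 and 26.1. Among these 5 named regions, 4 were above the cluster median of 30.1, but the rule did not name every region with 4 loci. None of the 5 overlapped a region of both replicates. Over the clusters, 42.9% of replicate 1 regions overlapped a replicate 2 region, and 5 regions are too few to set against that share.

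Cluster regions lay in coding sequence and in promoters more often than positions at large. Their summit was in coding sequence in 32.3% of cases, against 17.0% of cluster positions, and outside protein-coding genes in 37.1%, against 50.6%. A promoter window, from 1000 bp upstream to 500 bp downstream of an annotated 5′ end of a protein-coding gene, held 33.5% of the summits (30.6 to 36.4), against 26.2% of cluster positions. On the rest of chromosome IV promoter windows held 37.4% of the summits and 34.3% of positions, and coding sequence held 35.2% and 25.7%. These shares were not compared at the same GC content. Of the 941 protein-coding genes with a 5′ end in the clusters, 288 (30.6%) had a candidate summit in that window and 10 a final peak, against 971 of 2340 (41.5%) with a candidate and 34 with a final peak on the rest of the chromosome.

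Genes of other small RNAs were near a few of the regions. A gene for a tRNA, snRNA, snoRNA or rRNA was found at most 500 bp from the summit of 34 of the 1048 regions (3.24%, 2.26 to 4.50), against 62 of 3103 on the rest of chromosome IV (2.00%, 1.54 to 2.55). Of all positions, 1.26% in the clusters and 0.879% elsewhere lie that close to such a gene, so both groups were above their own positions. For tRNA genes, many of which occur in several copies, the counts were 25 (2.39%) in the clusters and 24 (0.773%) elsewhere, against 0.658% of positions in the clusters and 0.275% elsewhere. For snoRNA genes, whose products guide the modification of ribosomal RNA, they were 6 (0.573%, 0.210 to 1.24) in the clusters and 33 (1.06%, 0.733 to 1.49) elsewhere. Of all positions, 0.336% in the clusters and 0.393% elsewhere lie that close to a snoRNA gene. The snoRNA shares were 0.870% in the clusters and 0.911% elsewhere in replicate 1, and 0.666% and 1.23% in replicate 2. More than 10% of the 24-mers around the summit occur more than once in the genome at 16.4% of the cluster regions and at 12.7% of the others. Both shares were below those of all positions, 21.1% in the clusters and 19.5% elsewhere. Among the regions with at most 10% of such 24-mers, the order of the small RNA share turned round, with 12 regions (1.37%) in the clusters, against 1.51% elsewhere.

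Sequence motifs within 100 bp of the summit were searched on both strands. The 21U-RNA core, CTGTTTCA, was present at 5.44% of the cluster regions (4.15 to 6.99), against 14.6% of all cluster windows, and windows of the same GC content held it at 5.47%. AATGCAT, a site of the kind bound by MEC-3 with UNC-86, was present at 2.10%, against 2.82% of all cluster windows and 2.46% of windows of the same GC content, an order that turned in replicate 1 (2.70%, against 2.50% at the same GC content) and replicate 2 (2.66%, against 2.53%). The homeodomain core TAATTA was present at 6.68% of the cluster regions, against 11.4% of all cluster windows and 5.90% of windows of the same GC content, so its direction turned with GC content. In replicate 1 it was at 7.14%, against 6.27% at the same GC content, and in replicate 2 at 8.88%, against 6.88%. GAGAGA was present at 18.7% of the cluster regions, against 8.71% of all cluster windows and 13.8% of windows of the same GC content, at 17.2%, against 13.5%, in replicate 1 and at 15.2%, against 12.9%, in replicate 2. On the rest of chromosome IV, 16.6% of the regions held GAGAGA in the joint list, 15.3% in replicate 1 and 15.4% in replicate 2, so the order against the clusters turned in replicate 2. A match describes letters only and shows no bound site.

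Regions of the clusters recurred between replicates about as often as those on the rest of the chromosome. A replicate 2 summit lay within 100 bp of 253 of 1149 cluster regions of replicate 1 (22.0%, 19.7 to 24.5), against 764 of 3404 elsewhere (22.4%, 21.1 to 23.9). By comparison, 2.92% of all cluster positions and 4.50% of the other positions lie that close to a replicate 2 summit. Seen from replicate 2, 28.1% of the cluster regions and 30.2% of the others were matched. The share fell with signal, at 41.0%, 21.3%, 15.3% and 10.5% in 4 groups of replicate 1 cluster regions in order of falling signal. Over the 253 matched pairs Spearman's rho of the signals was 0.348, against 0.364 for the 764 pairs elsewhere. Replicates here share the antibody and the strain, and the lists reach far into weak regions, so an unmatched region does not show that binding was absent.

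**Figure D5:**
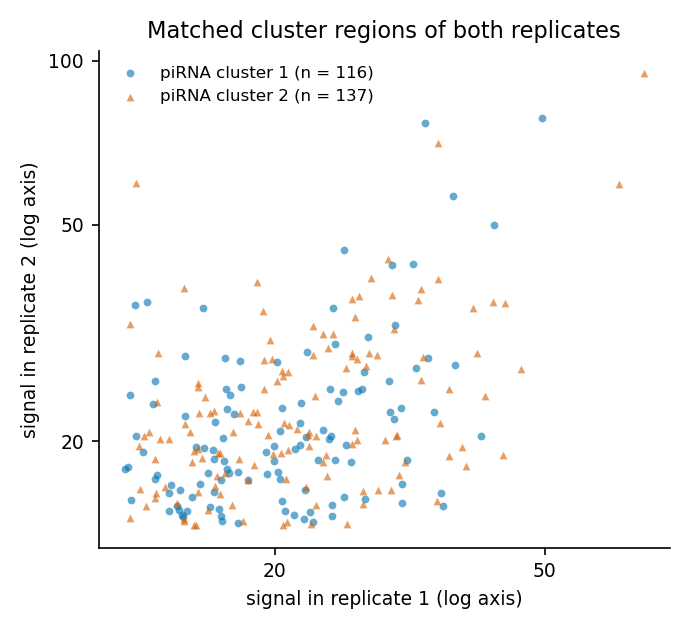
Deposited signal of matched cluster regions in replicate 1 (horizontal) and replicate 2 (vertical), on log axes, with 116 pairs in cluster 1 and 137 in cluster 2. The pair with the highest signal in both, at snx-13 in cluster 2, had 70.1 in replicate 1 and 94.7 in replicate 2.

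Protein-coding genes of the piRNA pathway were read in the same lists, wherever they lie. Of 25 listed genes, 24 were matched by name, 14 had a candidate region in their promoter window (58.3%) and 0 a final peak, while 8242 of all 19973 protein-coding genes (41.3%) had a candidate and 332 a final peak. The highest signals were those of tofu-1 (69.6, rank 741), a gene needed for 21U-RNA processing, tofu-5 (45.5), whose product sits at 21U-RNA promoters, nrde-3 (43.6), a nuclear Argonaute of somatic cells, and tost-1 (43.0). For tofu-1 the signal was 30.2 in replicate 1 and 39.0 in replicate 2, while tost-1 was listed in replicate 2 alone. The gene of the piRNA Argonaute, prg-1, had signal 27.4, below the median of 30.3 over all candidates.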

How the data were processed

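The files are region lists that the authors deposited on ce11 and ce10: one for each replicate, one called on both replicates together and a final list. Each region has a signal and a −log10 q-value, both as the authors deposited them. The signal only ranked or described regions within a list, and the q-value chose no region. Among cluster regions of the joint list the −log10 q-value ran from 0.0178 to 2.31. It was 0.239 at rank 7958 of 27953, so most of the list has weak support. Neither an aligner nor a peak caller is named in the sources used here, and the depth behind each region is unknown.

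Summits were placed on Ensembl release 115 genes and WBcel235 sequence from RefSeq with Python 3.11.15, NumPy 2.4.6, pandas 2.3.3 and SciPy 1.17.1. Overlap needed 1 bp. GC content, motifs and 24-mers were read in the 201 bases around a summit. Shares carry exact Clopper-Pearson 95% intervals. With 1 group of 2 samples no test between samples was possible. The measures were tested on simulated regions. Named regions are the 10 strongest of each cluster, those overlapping a final peak and the 5 with most 21U-RNA genes. The regions, limits, motifs and gene lists were chosen with earlier results of these data known. Neighbouring regions can share reads, and the 25-gene pathway list was written from general knowledge. tofu-3 matched no gene.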

Additional observations from a re-analysis of the deposited data

How the results depend on the processing

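Over 8 results and 60 alternatives that change the value, 38 values stayed within the 95% interval of the main value with the same order against their comparison, 17 moved outside it and 5 turned the order round. Another 3 alternatives change the comparison alone, to the same GC content, and narrowed it from 35.4 to 30.2% for the density, from 47.6 to 24.1% for regions with a 21U-RNA 5′ end and from 7.11 to 2.82% for 21U-RNA genes inside a region. The low density, the low share at a final peak, the low share of regions with a 21U-RNA gene and the low share of 21U-RNA genes inside a region kept their order under every alternative run. All of these alternatives took both clusters together. In cluster 1 alone, the share of 21U-RNA genes inside a region was above that of bases of the same GC content in each replicate. It was 4.26%, against 3.94%, in replicate 1 and 3.69%, against 3.56%, in replicate 2. Moving the limits inwards by 250 kb gave 19.4% of regions in 29.7% of the length, and 22.9% of regions with a 21U-RNA 5′ end. Taking only regions at or above the median signal gave 2.5% at a final peak, 15% with a 21U-RNA 5′ end, 0.817% of 21U-RNA genes inside a region and 4.81% near a small RNA gene. Counting summits within 100 bp of a 21U-RNA 5′ end gave 9.16% of regions and 0.887% of genes. Promoter windows from 500 and 2000 bp upstream held 26.6% and 47.3%, and 4.58% lay within 1000 bp of a small RNA gene. Replicates matched at 31.0% within 200 bp, 42.9% by 1 bp of overlap and 33.3% by 50% of the shorter region. The order of clusters against the rest of the chromosome turned round in 5 cases: signal above the median, at 51.9% in the clusters and 49.3% elsewhere among the stronger regions and at 50.3% in the clusters and 49.9% elsewhere among single-copy regions; matched replicates, at 14% in the clusters and 13.8% elsewhere within 50 bp and at 22.0% in the clusters and 21.1% elsewhere among the stronger regions; and small RNA genes, at 1.37% in the clusters and 1.51% elsewhere among single-copy regions. The cause was not tested. With 1 replicate at a time, regions in the clusters came to 25.2 to 26.3%, signal above the median to 48.0 to 49.6%, final peaks to 1.31 to 1.44%, promoters to 33.3 to 33.7%, 21U-RNA 5′ ends to 21.1 to 24.8%, 21U-RNA genes to 2.63 to 2.74% and small RNA genes to 3.44 to 3.48%; the match of replicates cannot be had from 1 replicate. No paired analysis was possible because the series has 1 group. Unknown depth limits what an absent region can show.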
